A study of Homo sapiens with 12 samples.

Results

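The Krüppel-like factor genes KLF2, KLF3, KLF4, KLF6, KLF7, KLF9, KLF10, KLF11, KLF13 and KLF16 were followed in HL-60/S4, an established human promyelocytic leukemia cell line. They are 10 of the 58288 genes in the deposited count table, taken by symbol, and the 8 other KLF genes, most of them at or near 0 counts, are given after them. RNA was sequenced in 12 libraries, 3 in each of 4 groups: undifferentiated cells (promyelocytes) and cells differentiated with all-trans retinoic acid (ATRA; granulocytes), each with TNF-α or with water as the vehicle. The dose of TNF-α was 16 ng/mL over 2 h in growth medium with added calcium, ATRA had been present at 1 µM for 4 days, and every group was labelled as 8 passages old. All groups come from 1 line, each library is from its own flask, and flasks of 1 line are not independent donors, so p-values measure the spread between flasks. Promyelocytes and granulocytes were treated in separate experiments, so that cell type and experiment cannot be told apart in any comparison between them.

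Krüppel-like factors (KLFs) are transcription factors with a conserved run of zinc fingers at their carboxyl end, which bind GC-rich and CACCC elements of the kind that Sp proteins also bind. Outside the fingers the family divides by its partners. KLF2, KLF4, KLF6 and KLF7 belong to a group that often activates transcription, KLF3 recruits the corepressor CtBP, and KLF9, KLF10, KLF11, KLF13 and KLF16 bind the corepressor SIN3. In myeloid cells KLF4 is known for monocyte differentiation, KLF2 for restraint of inflammatory activation and KLF6 for the support of inflammatory gene expression.

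After TNF-α, 7 of the 9 members that could be tested were higher in granulocytes and none passed as lower, whereas in promyelocytes KLF6 alone was higher and KLF9, KLF13 and KLF16 were lower (adjusted p under 0.05, edgeR's quasi-likelihood test with Benjamini-Hochberg adjustment). In granulocytes 4 of the 7 increases, those of KLF4, KLF6, KLF7 and KLF10, passed when library sizes were taken from TPM in place of TMM, while KLF9 did not pass and KLF3 and KLF13 turned slightly negative. Among all genes tested, 24.4% were called higher and 24.8% lower in granulocytes (49.2% in either direction), and in promyelocytes 8.15% were called higher and 6.65% lower (14.8% in either direction). The response of 8 of the 9 members was more positive in granulocytes than in promyelocytes by the test of the difference itself (5 of 9 with library sizes from TPM), for which 14.1% of all genes were called in that direction, 9.88% in the other and 24% in either. The median log2 fold change of the 9 members was -0.06 in promyelocytes and 0.43 in granulocytes, beside -0.01 and 0.00 over all genes tested.

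Normalized counts (CPM) are counts divided by library sizes scaled by TMM, an adjustment that sets most genes to no change between libraries. Totals per library ranged from 22829189 to 31895061 read pairs, at which 3 counts correspond to 0.0941 to 0.131 CPM. TNFAIP3 and NFKBIA, both classical NF-κB target genes, checked the treatment: their log2 fold changes were 3.63 and 3.91 in promyelocytes and 5.08 and 5.51 in granulocytes. The summed level of 5 promyelocyte granule genes was taken in TPM, a level that also divides by gene length. It ranged from 8186 to 8450 TPM in vehicle-treated promyelocytes and from 6475 to 7680 TPM in those with TNF-α. In granulocytes it ranged from 2348 to 2554 TPM with vehicle and from 1967 to 2152 TPM with TNF-α. By edgeR with TMM, 3 of the 5 fell in promyelocytes and none of the 4 tested passed in granulocytes. With library sizes from TPM 2 fell in each, and the median log2 fold change of all genes in granulocytes was -0.24. For 6 genes of granulocytic differentiation the ranges were 94.1 to 100.5 TPM, 169.5 to 195.1 TPM, 3374 to 3544 TPM and 3375 to 3494 TPM in the same groups. In promyelocytes the mean of CYBB went from 73.4 to 146 TPM and that of NCF1 from 8.43 to 20.3 TPM. By edgeR with TMM both rose there, CSF3R fell and the other 3 did not pass. In granulocytes NCF1 and FPR1 rose, CYBB did not pass and the other 3 fell. Of all genes tested, 14.8% were called in promyelocytes and 49.2% in granulocytes. The summed level of 6 monocyte and macrophage markers was 106.4 to 111.3 TPM in vehicle-treated granulocytes and 67.4 to 68.1 TPM after TNF-α. Nearly all of that was CSF1R and VSIG4, while CD14, MRC1, CD163 and MARCO had between 0 and 12 counts in any library. The part of these marker shifts in the KLF values was not tested. In bulk RNA, fewer cells of a type and less RNA per cell cannot be told apart.

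The upstream sequences show how unlike the members are in the elements that KLF and Sp proteins bind. RefSeq promoter windows (build GRCh38.p14, from 250 bases before to 50 after an annotated start) were found for 8 of the 10 members, 12 windows in all. The GC box GGGCGG, searched on both strands with overlaps counted, was in 8 of the 12 windows and in 7 of the 8 members, against 44.95% of all 35116 windows. CACCC was in 5 windows of 3 members (59.9% of all windows). No NF-κB element matched in any of the 12 windows (5.91% of all windows hold one), which says only that these letters are not in these windows. The lines below are the parts before the annotated starts for KLF6, which had the largest log2 fold change of the 9 tested members, and for the 3 members that were lower in promyelocytes, with GC boxes in capitals.
KLF6, minus strand, chr10:3785282-3785459: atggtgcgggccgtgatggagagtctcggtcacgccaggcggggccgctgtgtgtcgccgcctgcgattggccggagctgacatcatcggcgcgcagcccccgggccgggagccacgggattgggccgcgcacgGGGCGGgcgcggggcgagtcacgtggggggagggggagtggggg
KLF9, minus strand, chr9:70414658-70414907: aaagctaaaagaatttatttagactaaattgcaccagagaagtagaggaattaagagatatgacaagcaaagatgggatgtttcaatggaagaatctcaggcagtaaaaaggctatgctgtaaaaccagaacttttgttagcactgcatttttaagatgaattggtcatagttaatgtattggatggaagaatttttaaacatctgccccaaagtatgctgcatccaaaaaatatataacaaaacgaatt
KLF13, plus strand, chr15:31326585-31326834: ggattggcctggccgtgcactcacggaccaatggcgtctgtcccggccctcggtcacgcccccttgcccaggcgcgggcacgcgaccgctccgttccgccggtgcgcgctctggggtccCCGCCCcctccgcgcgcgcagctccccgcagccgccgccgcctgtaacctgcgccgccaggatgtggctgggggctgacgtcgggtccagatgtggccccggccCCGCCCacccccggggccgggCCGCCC
KLF16, minus strand, chr19:1863580-1863829: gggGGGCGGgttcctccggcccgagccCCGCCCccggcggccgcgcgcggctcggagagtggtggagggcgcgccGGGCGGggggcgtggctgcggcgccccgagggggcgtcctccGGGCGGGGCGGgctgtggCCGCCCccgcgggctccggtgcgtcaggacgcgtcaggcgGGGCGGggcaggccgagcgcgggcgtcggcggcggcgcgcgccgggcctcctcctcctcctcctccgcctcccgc
KLF16 had 7 GC boxes, KLF13 had 3 and KLF9 had none in stretches of 250 bases. KLF6 had 1 in its shorter stretch of 178 bases and 2 in its full window. The KLF9 window stood apart by its base composition as well: 32.67% of its 300 bases were G or C, against 86.0% for KLF16, 78.33% for KLF13 and 70.67% for KLF6. The 3 genes lower in promyelocytes did not all hold this element.

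KLF6, an immediate-early zinc finger factor, had the largest increase of the 9 tested members in both cell types; KLF11, too low to be tested, is given as counts further on. Its gene lies at chr10:3775996-3785281 (hg38, minus strand), with 4 merged exons of 6139 bases in all. In promyelocytes KLF6 stood at 35.0, 35.3 and 33.5 CPM with vehicle and at 46.7, 48.9 and 47.6 CPM with TNF-α. In granulocytes it stood at 82.8, 93.4 and 97.9 CPM with vehicle and at 226, 212 and 220 CPM with TNF-α. Every TNF-α library was above every vehicle library in both cell types. Over all genes tested, the groups did not overlap, in either direction, for 31.1% in promyelocytes and 55.2% in granulocytes. The log2 fold change was 0.46 (SE 0.063, adjusted p = 1.842e-05) in promyelocytes and 1.26 (SE 0.054, adjusted p = 2.621e-21) in granulocytes by edgeR. The granulocyte response was the larger by 0.83 on the log2 scale (SE 0.085, adjusted p = 2.628e-08). KLF6 was also higher in granulocytes before any TNF-α, by 1.38 (SE 0.061, adjusted p = 4.003e-17).

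KLF7, the closest relative of KLF6 and best known from neuronal development, was higher after TNF-α in granulocytes. The gene lies at chr2:207074137-207167267 (hg38, minus strand). Its promyelocyte values were 23.1, 24.1 and 22.8 CPM with vehicle and 26.8, 24.1 and 22.7 CPM with TNF-α. In granulocytes they were 62.2, 65.9 and 64.7 CPM and then 105, 98.7 and 93.9 CPM. The promyelocyte groups overlapped and the granulocyte groups lay far apart. KLF7 had a log2 fold change of 0.63 in granulocytes (SE 0.054, edgeR adjusted p = 1.75e-12), and of 0.07 in promyelocytes with a 95% interval of -0.08 to 0.23 that did not pass (adjusted p = 0.6163). Between the cell types the responses differed by 0.59 (SE 0.092, adjusted p = 2.093e-05). KLF7-IT1, a transcript from within a KLF7 intron, rose by 0.60 in granulocytes (SE 0.16, adjusted p = 0.001534), although its vehicle and TNF-α libraries overlapped. The vehicle level of KLF7 was higher in granulocytes by 1.45 (SE 0.066).

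KLF4, a factor of monocyte differentiation and of induced pluripotency, was a low-level gene that increased in granulocytes. It lies at chr9:107484852-107490482 (hg38, minus strand). The promyelocyte libraries held 5.11, 5.13 and 3.64 CPM with vehicle and 4.75, 5.52 and 5.21 CPM with TNF-α. The granulocyte libraries held 1.62, 1.67 and 1.69 CPM with vehicle and 3.44, 3.001 and 3.16 CPM with TNF-α, from 42 to 84 counts each. The granulocyte groups did not overlap, yet the TNF-α level there stayed below every promyelocyte library. This held in TPM too, with at most 2.53 TPM in granulocytes with TNF-α against at least 2.96 TPM in promyelocytes. The log2 fold change was 0.94 in granulocytes (SE 0.20, edgeR adjusted p = 0.000189). In promyelocytes it was 0.16 (SE 0.16, adjusted p = 0.5703), and the difference of 0.83 (SE 0.24, adjusted p = 0.01237) was past the threshold. That last call was lost when trends with GC content and gene length were removed from each library (0.62, adjusted p = 0.05292).

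KLF2, a quiescence factor of T cells and endothelium, was close to the lower limit of the assay, with 6 to 41 counts per library. Its gene is at chr19:16324817-16327874 (hg38, plus strand). The values were 1.05, 1.502 and 0.486 CPM in vehicle-treated promyelocytes and 0.228, 0.613 and 0.667 CPM after TNF-α. In granulocytes they were 0.346, 0.534 and 0.675 CPM and then 0.402, 0.643 and 0.767 CPM. The groups overlapped in both cell types, and 1 vehicle-treated promyelocyte library lay among those with TNF-α. The log2 fold change of -0.98 in promyelocytes (SE 0.43, 95% interval -1.82 to -0.14) did not pass after adjustment over all genes (adjusted p = 0.1427, edgeR). Without promyelocyte vehicle replicate 3, the library with the lowest value, it was -1.31 and passed (adjusted p = 0.03363). In granulocytes the value was 0.21 (SE 0.40, adjusted p = 0.6954), and the difference of 1.23 between the responses did not pass (SE 0.63, adjusted p = 0.1651). KLF2 was the 1 member of the 8 with a RefSeq window whose window held a match to the MEF2 element (2.99% of all windows), shown here in capitals within the part before the annotated start.
KLF2, plus strand, chr19:16324576-16324816: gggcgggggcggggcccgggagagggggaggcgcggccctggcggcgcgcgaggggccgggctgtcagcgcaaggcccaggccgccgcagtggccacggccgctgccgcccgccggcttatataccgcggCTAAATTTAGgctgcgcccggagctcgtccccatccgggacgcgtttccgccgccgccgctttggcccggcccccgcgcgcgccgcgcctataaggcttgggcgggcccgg
MEF2 factors and the kinase ERK5 are known to drive KLF2 and KLF4 in endothelium, and the match is a description of the letters only.

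Of the 8 genes of that ERK5 and MEF2 pathway, 1 rose and 2 fell in promyelocytes (1 and 1 with library sizes from TPM). In granulocytes 4 rose and 3 fell (2 and 3 with library sizes from TPM). The shares of all tested genes called in either direction were 14.8% in promyelocytes and 49.2% in granulocytes. MAP3K3, a kinase above ERK5, fell in both cell types, by 0.24 on the log2 scale (adjusted p = 0.0129) and by 1.09 (adjusted p = 1.102e-19, edgeR), although the promyelocyte value of -0.21 with library sizes from TPM did not pass (adjusted p = 0.1221). MAP2K5, the kinase that activates ERK5, rose by 0.29 (adjusted p = 0.003329) and by 0.51 (adjusted p = 2.065e-09). MEF2D fell by 0.38 in promyelocytes (adjusted p = 0.0002725) and by 0.28 in granulocytes (adjusted p = 0.0008103, edgeR). MEF2C, a member of low level here, fell by 1.23 in granulocytes (adjusted p = 4.53e-06). Its promyelocyte value of -1.20 did not pass (adjusted p = 0.08305, edgeR). The MEF2C difference between the responses was 0.01 and did not pass either (adjusted p = 0.988, edgeR). Of 10 genes described elsewhere as regulated by KLF2 or KLF4, 6 were tested in promyelocytes, where 2 rose and none fell, and 5 in granulocytes, where 2 rose and 3 fell. The tissue factor gene F3 rose by 2.63 in promyelocytes (adjusted p = 1.284e-10) and by 3.78 in granulocytes (adjusted p = 8.311e-30). CDKN1A, which encodes the cell cycle inhibitor p21, rose by 3.82 in granulocytes (SE 0.14). CDKN1B, the gene of the cell cycle inhibitor p27, rose by 0.24 in promyelocytes (adjusted p = 0.01158) and fell by 0.24 in granulocytes (adjusted p = 0.0004136), with a difference of -0.44 between the responses (adjusted p = 0.0001916, edgeR).

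KLF3, which represses through CtBP, was among the more abundant members. Its gene is at chr4:38664196-38701042 (hg38, plus strand). In promyelocytes its libraries held 46.3, 47.9 and 50.6 CPM with vehicle and 50.0, 43.1 and 45.5 CPM with TNF-α. In granulocytes they held 130, 139 and 139 CPM with vehicle and 167, 157 and 154 CPM with TNF-α. The promyelocyte groups overlapped, and the granulocyte groups were separated by a gap small beside that of KLF6. The log2 fold change was 0.23 in granulocytes (SE 0.050, edgeR adjusted p = 0.0001894) and -0.06 in promyelocytes (SE 0.068, adjusted p = 0.5972). The difference of 0.33 between the responses passed (SE 0.083, adjusted p = 0.003949). The granulocyte increase kept its call in 7 of 9 alternative fits and was -0.01 with library sizes from TPM. The difference kept its call in 5 of 7 alternative fits. With library sizes from TPM it was 0.03 (adjusted p = 0.8755, edgeR). KLF3-AS1, on the opposite strand, had 1 to 6 counts in promyelocytes and 19 to 56 in granulocytes, and the counting used strand. The pseudogene KLF3P1 had 21 to 48 counts over the libraries, and how reads shared with KLF3 were split between them was not tested. CTBP2, one of the corepressor genes, fell by 0.49 in granulocytes (SE 0.049, adjusted p = 7.363e-11).

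KLF9, a SIN3-binding factor induced by glucocorticoid and thyroid hormones, moved in opposite directions in the 2 cell types. Its gene lies at chr9:70384597-70414624 (hg38, minus strand), with 2 merged exons of 5175 bases. The promyelocyte libraries held 12.2, 11.7 and 13.1 CPM with vehicle and 9.66, 6.53 and 7.34 CPM with TNF-α. The granulocyte libraries held 7.28, 8.14 and 6.95 CPM with vehicle and 10.6, 10.4 and 9.25 CPM with TNF-α. TNF-α libraries lay below all vehicle libraries in promyelocytes and above all of them in granulocytes. The log2 fold change was -0.66 in promyelocytes (SE 0.13, edgeR adjusted p = 0.0009615) and 0.43 in granulocytes (SE 0.11, adjusted p = 0.001058). The responses differed by 1.13 (SE 0.17, adjusted p = 1.311e-05), the largest difference among the 8 members that passed. With library sizes from TPM the granulocyte increase was 0.19 and did not pass (adjusted p = 0.1573).

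KLF13, known from the control of the chemokine gene CCL5 in T cells, also moved in opposite directions. The gene spans chr15:31326855-31435665 (hg38, plus strand). In promyelocytes it stood at 148, 146 and 147 CPM with vehicle and at 116, 109 and 114 CPM with TNF-α. In granulocytes it stood at 268, 276 and 281 CPM with vehicle and at 318, 294 and 315 CPM with TNF-α. The libraries of the groups were apart in both cell types. KLF13 fell by 0.38 on the log2 scale in promyelocytes (SE 0.056, edgeR adjusted p = 4.644e-05) and had a log2 fold change of 0.17 in granulocytes (SE 0.049, adjusted p = 0.004748). The granulocyte increase was lost with library totals in place of TMM (0.04, adjusted p = 0.5552), with GC content and length trends removed (0.04, adjusted p = 0.4532) and with library sizes from TPM, where it was -0.07 (adjusted p = 0.3228). The difference between the responses, 0.59 (SE 0.072, adjusted p = 6.068e-07), passed in every one of these fits, the lowest value being 0.28 (adjusted p = 0.0246).

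KLF16, another SIN3-binding member, fell in promyelocytes. Its gene is at chr19:1852399-1863568 (hg38, minus strand) and its exons are 68.2% G or C, the highest share of the 10. The promyelocyte libraries held 76.5, 67.3 and 63.0 CPM with vehicle and 43.7, 43.7 and 52.7 CPM with TNF-α. The granulocyte libraries held 26.8, 25.1 and 27.3 CPM with vehicle and 28.9, 29.1 and 26.8 CPM with TNF-α. The promyelocyte groups were apart and the granulocyte groups overlapped. The log2 fold change was -0.56 in promyelocytes (SE 0.081, edgeR adjusted p = 3.934e-05) and 0.10 in granulocytes (SE 0.068, adjusted p = 0.2241), with a difference of 0.70 (SE 0.12, adjusted p = 4.561e-05). Across all genes, fold changes in promyelocytes went with base composition: the median was 0.06 for genes under 45% G or C and -0.11 for genes over 60%. In granulocytes the trend was the opposite, with medians of -0.06 and 0.12. After removal of the trends with GC content and length, the KLF16 value was -0.44 in promyelocytes (adjusted p = 1.909e-05), and the responses then differed by 0.33 (adjusted p = 0.003804).

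KLF10 and KLF11, the TGF-β-inducible early genes, gave the clearest contrast of depth within 1 subfamily. KLF10 stood at 22.5, 22.1 and 22.4 CPM in vehicle-treated promyelocytes and at 23.5, 23.4 and 25.2 CPM with TNF-α. In granulocytes it stood at 22.7, 22.5 and 20.4 CPM with vehicle and at 44.5, 44.9 and 45.4 CPM with TNF-α. All libraries of the first 3 groups lay between 20.4 and 25.2 CPM, below every granulocyte library with TNF-α. Its log2 fold change was 1.04 in granulocytes (SE 0.064, edgeR adjusted p = 2.014e-16), next after KLF6. In promyelocytes it was 0.11 (95% interval -0.04 to 0.25, adjusted p = 0.4033), although the 3 TNF-α libraries were above the 3 with vehicle. The responses were 0.97 apart (SE 0.095, adjusted p = 1.243e-08).

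KLF11 was almost silent and did not pass the filter on low counts with all libraries, so it is given as counts (gene at chr2:10042849-10054836, hg38, plus strand). Its libraries held 1, 0 and 1 counts in vehicle-treated promyelocytes and 6, 4 and 6 with TNF-α. In granulocytes they held 3, 1 and 4 counts with vehicle and 8, 13 and 8 with TNF-α. TNF-α libraries were above vehicle libraries in both cell types, at counts next to the floor of 3. The ratio of summed counts, scaled to library size, was 8.18 in promyelocytes (exact 95% interval 1.92 to 73.3) and 4.28 in granulocytes (1.91 to 10.8), intervals that cover counting error only. Fitted without the filter by edgeR, KLF11 passed in granulocytes (adjusted p = 0.02135) and missed the threshold in promyelocytes (adjusted p = 0.1296).

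Of the 9 TGF-β pathway genes tied to KLF10 and KLF11, 3 rose and 1 fell in promyelocytes. In granulocytes 3 rose and 4 fell (3 and 5 with library sizes from TPM). Calls in either direction covered 14.8% of all tested genes in promyelocytes and 49.2% in granulocytes. SMAD3, which carries the TGF-β signal to the nucleus, rose by 0.43 in promyelocytes (SE 0.070) and by 2.43 in granulocytes (SE 0.052), with a difference of 2.04 between the responses (adjusted p = 8.791e-16, edgeR). SKIL, a SMAD corepressor, rose by 0.53 (adjusted p = 2.515e-05) and 0.67 (adjusted p = 2.658e-13). The ligand gene TGFB1 rose by 0.57 in granulocytes (adjusted p = 1.78e-10). SKI, a corepressor related to SKIL, fell by 0.58 in promyelocytes (adjusted p = 5.15e-06) and by 0.49 in granulocytes (adjusted p = 3.955e-08, edgeR). Among the 11 cofactor genes none passed in promyelocytes, while 4 rose and 3 fell in granulocytes with TMM, and none rose and 6 fell there with library sizes from TPM. SIN3A and SIN3B, the partners of KLF9, KLF10, KLF11, KLF13 and KLF16, moved in opposite directions there, by 0.30 (SE 0.051) and -0.30 (SE 0.049). However, SIN3A was at 0.06 with library sizes from TPM (adjusted p = 0.4184, edgeR).

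**Figure D1:**
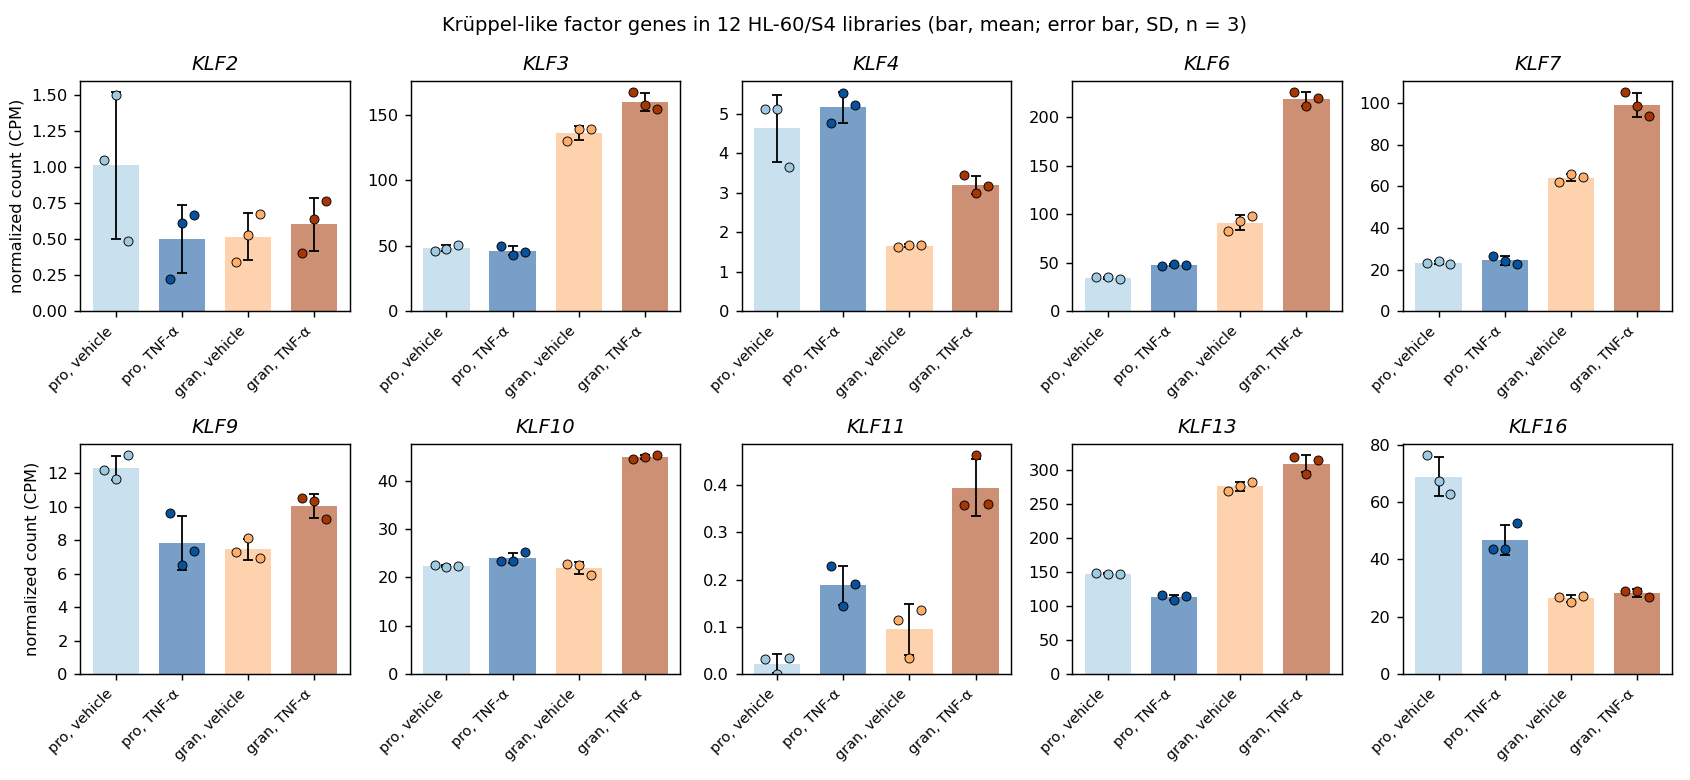
Normalized counts (CPM, scaled within each cell type, linear axes from 0) of the 10 genes in promyelocytes (pro) and granulocytes (gran) with vehicle or TNF-α. Points are libraries, bars means and error bars SD of 3 libraries. KLF6 reaches 212 to 226 CPM in granulocytes with TNF-α. KLF10 lies at 44.5 CPM or above there and at 25.2 CPM or below in the other 3 groups. With the TMM scaling drawn here, KLF9 and KLF13 go down in promyelocytes and up in granulocytes. With library sizes from TPM neither granulocyte increase passed, and the KLF13 value turned negative. The KLF13 increase was also lost with GC content and length trends removed.

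**Figure D2:**
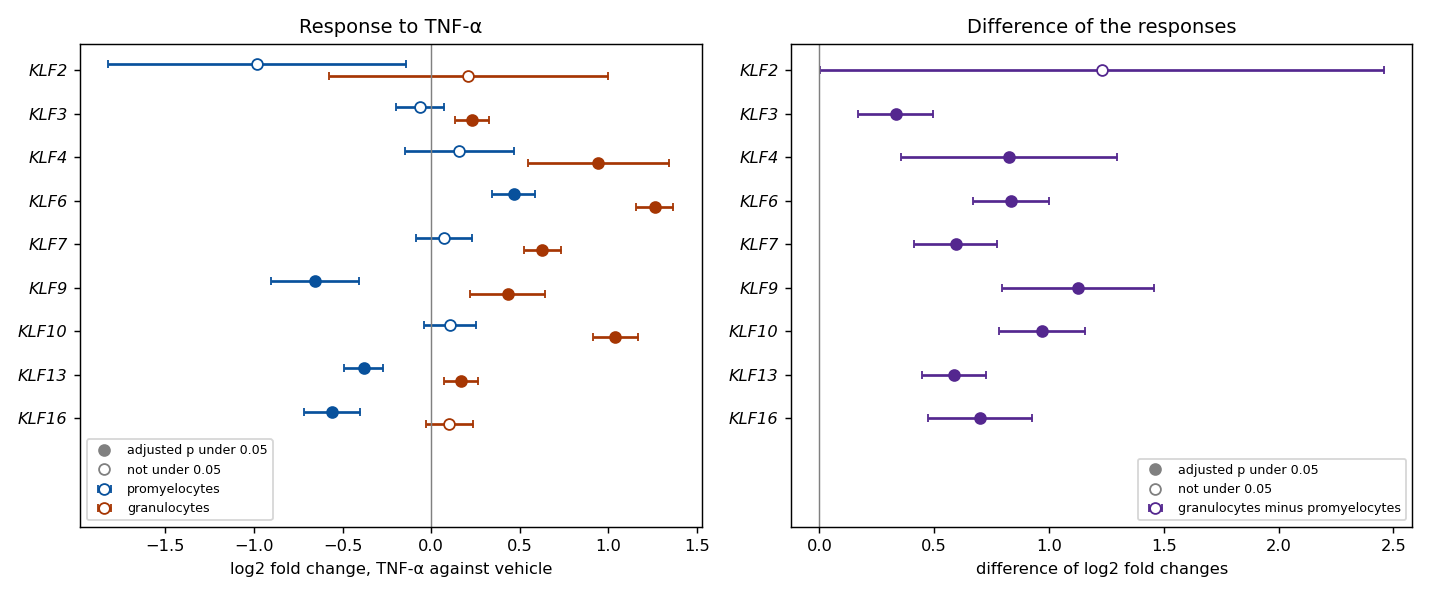
Log2 fold changes of the 9 tested genes after TNF-α in each cell type (left) and the difference of the responses, granulocytes minus promyelocytes (right), with 95% intervals; filled symbols have an adjusted p under 0.05 in edgeR. All 9 differences lie above 0, and 8 of them are past the threshold, from 0.33 for KLF3 to 1.13 for KLF9, with KLF3, KLF4 and KLF7 losing the call under library sizes from TPM.

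The 2 experiments also differed in vehicle-treated cells: KLF3, KLF6, KLF7 and KLF13 were higher in granulocytes and KLF2, KLF4, KLF9 and KLF16 lower. Such a call was common, with 35.7% of all genes called higher and 36.3% lower (72% in either direction), and the vehicle libraries of the cell types did not overlap for 74.4%. KLF3 was higher by 1.48 (SE 0.060) on the log2 scale and KLF13 by 0.89 (SE 0.051), whereas KLF4 had -1.497 (SE 0.17), KLF16 -1.40 (SE 0.081) and KLF9 -0.74 (SE 0.12). The difference of KLF2, -0.96 (SE 0.42, edgeR adjusted p = 0.04342), rested on overlapping libraries and was lost without any 1 of 4 vehicle libraries, the lowest value being -0.59 without promyelocyte vehicle replicate 2 (adjusted p = 0.2723). KLF10 had -0.05 with a 95% interval of -0.18 to 0.09.

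Per transcript length the order of the members changed between the groups. In vehicle-treated promyelocytes KLF16 was the most abundant (67.7 ± 4.39 TPM, SD, n = 3), followed by KLF13 (45.4 ± 1.47) and KLF3 (22.3 ± 1.73 TPM). KLF6 (16.4 ± 0.632) and KLF10 (16.2 ± 0.507 TPM) overlapped, as did KLF7 (7.32 ± 0.398) and KLF9 (6.93 ± 0.527 TPM). KLF4 (3.67 ± 0.632), KLF2 (1.46 ± 0.748) and KLF11 (0.0139 ± 0.0122 TPM) were the lowest in that group and did not overlap one another. In vehicle-treated granulocytes the order was KLF13 (95.5 ± 1.84 TPM), KLF3 (70.6 ± 2.91), KLF6 (48.6 ± 3.79), KLF16 (29.2 ± 0.884), KLF7 (22.7 ± 0.824), KLF10 (17.9 ± 1.31), KLF9 (4.71 ± 0.467), KLF4 (1.48 ± 0.0316), KLF2 (0.838 ± 0.256) and KLF11 (0.0670 ± 0.0376 TPM), with no overlap between neighbours.

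TNF-α brought KLF6 from place 3 to the top in granulocytes, at 98.8 ± 5.76 TPM, where it overlapped KLF13 (90.9 ± 6.72 TPM). KLF3 followed with 70.1 ± 2.39 TPM, then KLF10 (31.1 ± 1.76) and KLF7 (29.6 ± 0.928 TPM), which overlapped, and KLF16 (26.4 ± 0.106 TPM). In promyelocytes with TNF-α KLF16 stayed first at 46.7 ± 4.90 TPM, before KLF13 at 35.5 ± 2.96 TPM, and KLF6 (23.0 ± 0.762 TPM) overlapped KLF3 (21.7 ± 2.82 TPM). The summed TPM of the 10 members was 187.4 ± 3.002 and 162 ± 11.4 in promyelocytes with vehicle and TNF-α, and 291.5 ± 8.45 and 355.9 ± 16.6 in granulocytes. KLF6 made up 8.75% of that sum in vehicle-treated promyelocytes and 14.2% with TNF-α, and 16.7% and 27.8% in granulocytes. TPM scales every library to the same total, and on it the means of KLF2, KLF3, KLF13 and KLF16 were no higher after TNF-α in granulocytes.

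**Figure D3:**
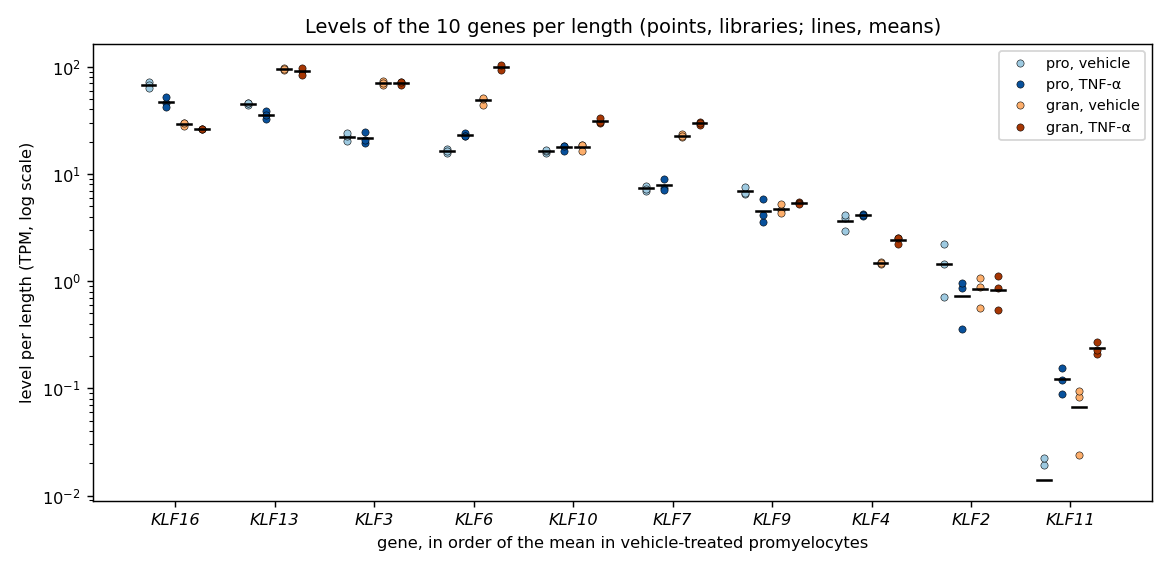
Level per length (TPM, log axis) of the 10 genes in each of the 4 groups; points are libraries, lines group means, and 1 library of KLF11 with 0 counts is left off the axis. KLF16 is the highest in promyelocytes, KLF13 in vehicle-treated granulocytes, and KLF6 and KLF13 share the top in granulocytes with TNF-α at 98.8 and 90.9 TPM.

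The small granulocyte responses moved with the scaling. With library totals in place of TMM the median log2 fold change of all genes in granulocytes was -0.13, and with library sizes from TPM it was -0.24, against 0.00 with TMM. A change of library sizes moves all genes by nearly the same amount, so values set against the median hardly depend on it. That follows from the arithmetic and is no test of the scaling. Under library sizes from TPM these values were KLF6 1.27, KLF10 1.04, KLF4 0.95, KLF7 0.63, KLF9 0.43, KLF3 0.23 and KLF13 0.17. KLF9, KLF3 and KLF13 did not pass under that scaling. KLF6, KLF10, KLF4 and KLF7 passed in granulocytes under every scaling. In promyelocytes KLF6, KLF9, KLF13 and KLF16 did so too.

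**Figure D4:**
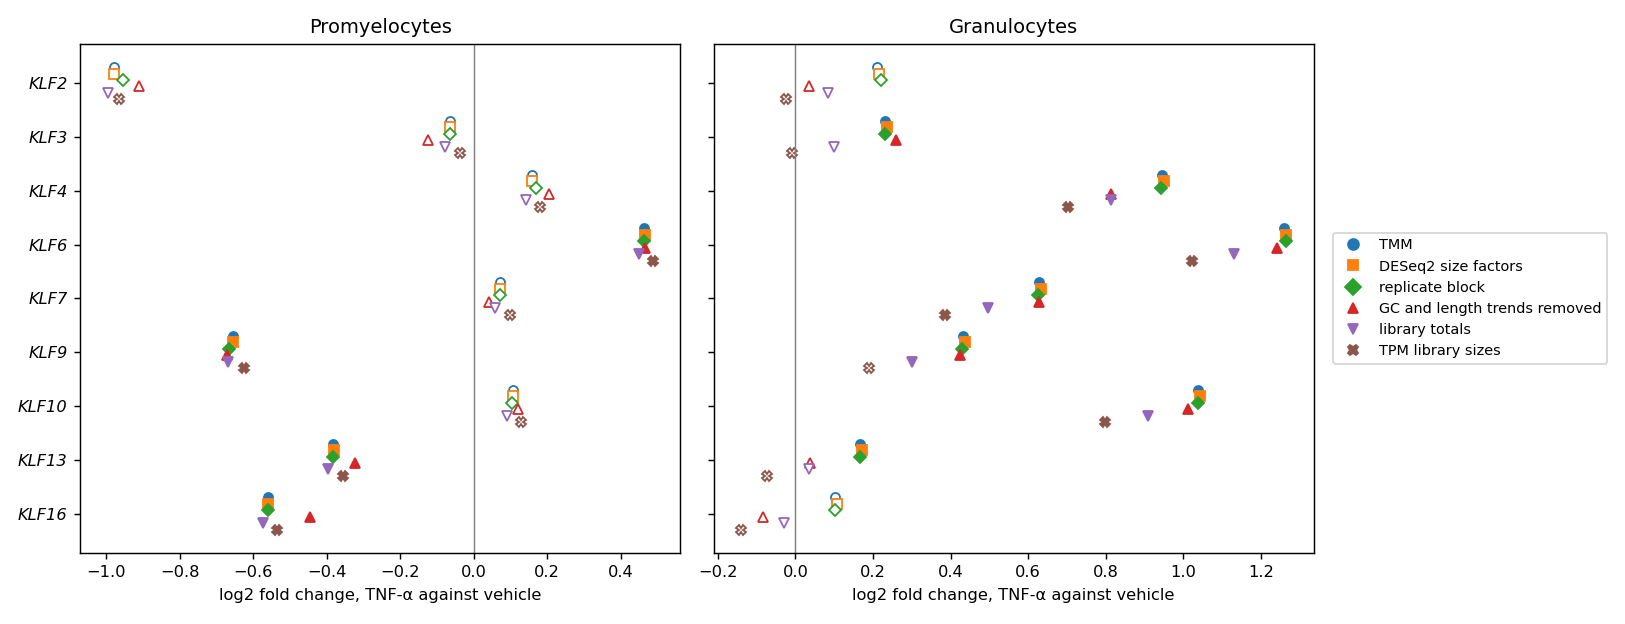
Log2 fold changes of the 9 tested genes after TNF-α under 6 ways of fitting the counts (symbols; filled where the adjusted p is under 0.05). In promyelocytes the symbols of each gene stay on their side of 0, while in granulocytes those of KLF2, KLF3, KLF13 and KLF16 reach from above 0 to below it, to -0.07 for KLF13 and -0.14 for KLF16.

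The other KLF genes were low or absent from the libraries. KLF8, KLF12 and KLF14 had 0 counts in all 12 libraries, and KLF15, KLF17 and KLF18 had at most 1 count in any. KLF1, the erythroid founder of the family, had 31 to 55 counts in vehicle-treated promyelocytes and 3 to 4 in vehicle-treated granulocytes. KLF5 had 27 to 63 counts over the libraries, and neither gene passed the test after TNF-α where it was tested. Of 9 Sp genes, 5 were tested in promyelocytes, where none passed, and 4 in granulocytes. There SP1 fell by 0.26 on the log2 scale (SE 0.048, edgeR adjusted p = 1.698e-05) and SP4 by 0.30 (SE 0.076, adjusted p = 0.001121). Among all tested genes 49.2% were called in granulocytes, in either direction.

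Genes patterned like the members with the largest differences between the responses were ranked by the root mean square difference of mean-centred log2 CPM over the 12 libraries, among 18124 genes. KLF2 had the largest difference, but it did not pass, and the gene had only 6 to 41 counts per library. The genes nearest to KLF2 were TMEM160 (0.377), ENSG00000283317 (0.400), SORT1 (0.403), ENSG00000205663.5 (0.431) and MIR3187 (0.439). For KLF9, chosen after its values were seen, they were USP3-AS1 (0.178), SLC25A29 (0.185), AXIN1 (0.192), NUMBL (0.207) and RPSAP19 (0.212).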

How the data were processed

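RNA of HL-60/S4 cells was sequenced in 12 libraries after removal of ribosomal RNA. Per the labels, the study used FastQC 0.11.4, STAR 2.5.3a, featureCounts 1.5.2 and DESeq2 1.16.1 with build hg38. The authors deposited raw counts of read pairs per gene, counted on the reverse strand according to the command kept in the file, without normalization, together with the exonic length of each gene. That length (another column the authors deposited) was used for TPM, RPKM and the length trends, and GC content was that of the exons in the hg38 reference.

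Groups were taken from the sample titles. The responses were fitted within a cell type by edgeR 4.0.16 (R 4.3.3), with TMM, filterByExpr (minimum count 10, minimum total 15), the quasi-likelihood test, and Benjamini-Hochberg adjustment over all genes tested at a threshold of 0.05. The difference of the responses and of the vehicle levels came from 1 fit of all 12 libraries. Each SE is the absolute log2 fold change over the square root of F, and fold changes use a prior count of 0.125. The 10 members were named in full, from each other list up to 3 genes past the threshold in each cell type, and the 5 genes most like the member with the largest difference of responses. The values of 1 gene of these lists are not reported here. The members and lists were chosen with earlier results of these data known. Symbols were found for 57577 identifiers. Depth ranged from 22829189 to 31895061 read pairs. The exact intervals of the KLF11 count ratios and the floor of 3 counts cover counting error only. Intervals of log2 fold changes were built from the SE of the quasi-likelihood test, which includes the spread between flasks. Promoter windows were those of RefSeq, build GRCh38.p14, and the motifs searched on both strands were the GC box, the CACCC box and the consensus NF-κB, MEF2 and CArG elements. CArG matched in 1 KLF7 window (1.29% of all windows).

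Alternatives were DESeq2's size factors, no filter, DESeq2 1.42.0, 1 fit of all libraries for the responses, a block for the replicate number, offsets that remove each library's trend with GC content and length, RPKM for TPM, and each library left out in turn. Library totals and library sizes from TPM were added after seeing the data. Replicate numbers did not pair the libraries: correlations of same-numbered deviations were -0.29 to -0.16 in promyelocytes and -0.17 to -0.01 in granulocytes. The fits were tested on simulated counts. Plots were drawn with matplotlib 3.10.9.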

Additional observations from a re-analysis of the deposited data

Results flagged for a closer look

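For 8 members the response to TNF-α differed between the cell types by the test of the difference itself (edgeR, all 12 libraries). Each was the more positive in granulocytes. Of all genes tested, 14.1% were called in that direction and 24% in either. On the log2 scale the difference was 1.13 for KLF9, 0.97 for KLF10, 0.83 for KLF6, 0.83 for KLF4, 0.7 for KLF16, 0.59 for KLF13, 0.59 for KLF7 and 0.33 for KLF3. Cell type and experiment cannot be told apart in these values. No group has 4 or more libraries, so that single outlying libraries were not looked for by a test.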

How the results depend on the processing

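With library sizes from TPM in place of TMM, 4 members were called higher in granulocytes (7 with TMM) and 5 had the more positive response there (8 with TMM). Under that scaling the granulocyte log2 fold changes of KLF2 (-0.024), KLF3 (-0.0097), KLF13 (-0.072) and KLF16 (-0.14) turned negative. KLF16 also turned negative there with library totals (-0.030), with GC content and length offsets (-0.0824) and with the replicate block and those offsets together (-0.0823). The KLF10 difference between vehicle groups, -0.05 in the fit as reported, turned positive with GC content and length offsets (0.077), library totals (0.029) and library sizes from TPM (0.14). Without 1 library it ranged from -0.066 to 0.0026, the highest without granulocyte vehicle replicate 3. The shift of the median of all genes accompanies the 2 scalings. The cause of the other changes was not tested.

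Leaving out 1 library at a time gave 1 increase and 3 to 4 decreases among the members in promyelocytes, and 7 to 8 increases in granulocytes. KLF2 and KLF16 passed in none of these granulocyte fits. Where there were 8 increases, the added gene was therefore KLF11, which was not tested with all libraries. Leaving out 1 library also gave 8 members with the more positive granulocyte response, and 4 increases and 3 to 4 decreases between vehicle groups. The ratio of the highest to the lowest member in TPM, 4851 in vehicle-treated promyelocytes, ranged from 3236 to 7207, because KLF11 had 0 or 1 count there. It reached 7207 without promyelocyte vehicle replicate 3.

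Under the replicate block the fold changes hardly moved (KLF6 1.26 in granulocytes, KLF9 -0.67 in promyelocytes) and no member's call changed. All-gene calls were 1012 higher and 821 lower in promyelocytes with the block (1324 and 1081 without), and 3837 and 3884 in granulocytes (4135 and 4209 without).

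Over all genes, granulocyte calls were 2810 higher and 6236 lower with library totals and 1991 and 7854 with library sizes from TPM. Calls on the difference of responses were 2561 higher and 1790 lower as reported, 2128 and 2266 with DESeq2's size factors, 1991 and 2518 without the filter, 1945 and 2304 with DESeq2, 2133 and 2356 with the offsets, 1570 and 3530 with totals, and 941 and 5318 with library sizes from TPM. Decreases in promyelocytes were 669 with library sizes from TPM, 653 without promyelocyte vehicle replicate 2, 667 without promyelocyte TNF replicate 2 and 1081 as reported. KLF2 had 6 to 41 counts per library and KLF11 0 to 13. Among the values of single members under all settings, 582 kept their direction and side of the threshold, 18 kept the direction and lost the call, 1 gained it and 11 changed sign. KLF2 between vehicle groups also lost its call with DESeq2 (-0.94), GC content and length offsets (-0.79), library totals (-0.89) and library sizes from TPM (-0.78).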
